A study of Mus musculus with 30 samples.

Results

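Chromatin accessibility peaks that were open in mouse epiblast stem cells (EpiSCs) of the strains C57BL/6 (B6) and PWK/PhJ (PWK) and nearly without reads in the library of the strain DBA/2J (DBA) numbered 1307, of 181059 peaks counted in all. They were chosen by their ATAC-seq counts. Each had at most 3 counts in the DBA library, at least 1.5 CPM (the count scaled to the library's sum over all peaks) in each of 4 B6 EpiSC libraries and at least 1 CPM in each of 2 PWK EpiSC libraries, and lay on chromosomes 1 to 19. The B6 and PWK criteria alone were met by 73659 peaks, here called the open peaks, and the members were 1.77% of them. Since the values of DBA, B6 and PWK chose the members, their levels in these 7 libraries are a description and were not tested.

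The study compared EpiSCs of several genetic backgrounds and followed B6 EpiSCs into definitive endoderm (DE). EpiSCs of C57BL/6, DBA/2J, PWK/PhJ and B6.129 F1 mice were untreated, at passages 5 to 10 and cultured over a feeder layer in N2B27-based medium that contained Fgf2, ActivinA and the Wnt inhibitor NVP-TNKS656. B6 DE was derived from such EpiSCs by 16 h of CHIR99201 with ActivinA and then 24 h of ActivinA with LDN193189, with a total of 46 h given, and CXCR4+ cells were enriched on magnetic beads. The ATAC-seq libraries used were 1 of DBA, 2 of PWK and 4 of B6 EpiSCs, beside 4 of B6 DE, and the RNA-seq libraries of EpiSCs were 1 of DBA, 3 of PWK, 3 of B6.129 F1 and 5 of B6. DBA was thus represented by 1 library in each assay, and a trait of the strain, of the line and of the library cannot be told apart. The title of the DBA RNA sample joins the line name DBA55 with the replicate name BioRep698, which a PWK line of the study also bears, and every DBA value of RNA rests on that label. The labels do not say which of the replicates came from separate animals, so the spread between them may be technical.

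ATAC-seq reads come from DNA that the Tn5 transposase can reach, which is mostly free of nucleosomes, and peaks of such reads mark promoters, enhancers and insulators. Inbred strains differ in sequence and in the copy number of some gene clusters, and a site can be open in 1 strain and closed or missing in another. EpiSCs correspond to the epiblast after implantation and express Pou5f1 with Fgf5, Otx2 and Dnmt3b while the naive markers Zfp42 and Dppa3 are silent. In the DBA RNA library, 7 of 10 pluripotency genes lay inside the range of the B6 libraries, among them Pou5f1 at 1191 CPM (B6 1158 ± 167, SD, n = 5), Fgf5 at 215 CPM (218 ± 46.5) and Dnmt3b at 1285 CPM (1543 ± 347). Otx2 lay below the range at 83.4 CPM (144 ± 32.0, a log2 difference of -0.76), and Sall4 and Lin28a above it at 336 CPM (251 ± 45.9) and 902 CPM (750 ± 103). Zfp42 and Dppa3 were near 0, at 0.0368 CPM each, as was Nr0b1. Other naive genes were low but not silent, each inside the B6 range. Klf4 was at 5.82 CPM (B6 4.35 ± 2.56) and Tfcp2l1 at 3.72 CPM (5.77 ± 2.66). Klf2, Esrrb and Tbx3 were at 2.36, 2.10 and 1.21 CPM.

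The sequences that could be shown were those of start sites under members, since only windows of 250 bases before to 50 bases after a start were used (RefSeq, GRCm38.p6, the assembly of the mm10 build). They are reference sequences, which follow C57BL/6 and not DBA. The 5 windows below are shown because they held at least 100 bases of a member with a B6 mean of 4.99 CPM or more. They are given on the strand of the gene, with the bases inside the member peak in capitals. LOC115489547 (chr2:177272457-177272756, minus strand) and Gm14403 (chr2:177497976-177498275, plus strand) both lay under members of chromosome 2 with 0 DBA counts. 5730507C01Rik (chr12:18514260-18514559, plus strand) and 1700030C10Rik (chr12:20815730-20816029, minus strand) were the most alike of the printed windows, with 77.1% identity over 218 aligned bases and a longest gap of 82 bases. Gm13283 (chr4:88760524-88760823, plus strand) lay under the member that ranked the tenth by B6 signal.
LOC115489547: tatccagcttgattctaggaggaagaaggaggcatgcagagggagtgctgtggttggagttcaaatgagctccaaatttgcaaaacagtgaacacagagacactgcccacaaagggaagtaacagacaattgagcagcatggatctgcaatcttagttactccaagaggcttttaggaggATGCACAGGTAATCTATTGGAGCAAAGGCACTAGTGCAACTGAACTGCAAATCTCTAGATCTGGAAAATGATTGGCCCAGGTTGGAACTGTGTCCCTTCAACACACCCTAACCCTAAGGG
Gm14403: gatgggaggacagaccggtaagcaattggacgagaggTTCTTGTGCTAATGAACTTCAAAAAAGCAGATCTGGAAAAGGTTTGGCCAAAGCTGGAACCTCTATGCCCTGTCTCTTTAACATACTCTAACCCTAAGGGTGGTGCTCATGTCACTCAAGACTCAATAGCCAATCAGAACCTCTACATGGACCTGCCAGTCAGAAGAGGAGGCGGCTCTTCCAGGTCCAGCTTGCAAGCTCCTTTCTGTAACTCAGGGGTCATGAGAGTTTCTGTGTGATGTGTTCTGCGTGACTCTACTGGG
5730507C01Rik: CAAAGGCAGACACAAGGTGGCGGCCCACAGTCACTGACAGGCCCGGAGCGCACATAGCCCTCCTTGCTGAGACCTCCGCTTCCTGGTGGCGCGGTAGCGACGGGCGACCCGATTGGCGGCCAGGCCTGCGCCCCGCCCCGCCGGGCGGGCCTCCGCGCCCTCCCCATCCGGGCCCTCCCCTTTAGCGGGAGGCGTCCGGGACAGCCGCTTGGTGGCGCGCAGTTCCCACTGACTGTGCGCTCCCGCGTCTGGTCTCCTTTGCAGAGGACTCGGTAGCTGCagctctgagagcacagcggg
1700030C10Rik: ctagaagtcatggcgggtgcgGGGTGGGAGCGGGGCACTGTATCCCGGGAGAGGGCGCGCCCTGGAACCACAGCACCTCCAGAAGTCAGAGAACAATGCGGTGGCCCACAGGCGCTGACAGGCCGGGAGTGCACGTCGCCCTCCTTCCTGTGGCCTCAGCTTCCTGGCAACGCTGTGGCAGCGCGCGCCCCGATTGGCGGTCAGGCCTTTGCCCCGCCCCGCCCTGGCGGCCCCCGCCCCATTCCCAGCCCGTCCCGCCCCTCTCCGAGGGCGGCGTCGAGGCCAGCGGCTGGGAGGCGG
Gm13283: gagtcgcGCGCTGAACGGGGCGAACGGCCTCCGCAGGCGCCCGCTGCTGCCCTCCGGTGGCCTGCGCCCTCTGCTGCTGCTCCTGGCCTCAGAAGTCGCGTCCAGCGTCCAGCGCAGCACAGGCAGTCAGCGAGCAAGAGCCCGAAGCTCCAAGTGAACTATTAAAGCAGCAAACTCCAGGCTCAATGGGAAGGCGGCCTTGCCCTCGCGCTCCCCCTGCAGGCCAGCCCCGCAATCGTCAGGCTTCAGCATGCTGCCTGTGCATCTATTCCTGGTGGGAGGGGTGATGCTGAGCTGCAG

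The library labelled B6 EpiSC replicate 44 stood apart at the members with strong signal, and results that rest on it are given with and without it. Over the 26 members with a B6 mean of at least 8 CPM, replicate 44 had a median of 24.9% of the mean of the other 3 B6 libraries and was the lowest of the 4 in 22 peaks. Over the other open peaks of that level its median was 90.6%. The low values coincided with those of DBA. Of 36639 autosomal peaks with at least 5 CPM in B6 replicates 1, 4 and 51, replicate 44 was at or below 0.449 CPM in 17, and DBA had at most 3 counts in 12 of these 17 (70.6%), against 126 of all 36639 (0.344%). When the B6 criterion was applied without replicate 44, 1804 peaks of 79346 met the rule. The number with a B6 mean of at least 8 CPM was then 54 in place of 26, and at these 54 replicate 44 stood at 15.6% of the other B6 libraries. Whether this comes from the identity of the cells or from handling was not tested.

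The totals of the 7 EpiSC libraries lay between 4256551 and 9571127 counts, with 6680997 in DBA. In DBA, 3 counts are 0.449 CPM, and 1 peak at 1.5 CPM in B6 replicate 44 rests on 6.38 counts, so the weakest members are thinly covered. The Poisson intervals and floors of DBA counts given here are for counting error only and take each count as a separate draw. Of the 1307 members, 277 had 0 DBA counts, 128 had 1, 672 had 2 and 230 had 3. Counts of 2 were more frequent than counts of 1 over all peaks too, with 12145 peaks at 2 and 4928 at 1. Single counts thus may not be separate draws, so the Poisson intervals may be too narrow and the floors too low. Just inside the limit, the 230 members with 3 DBA counts had a median B6 mean of 3.01 CPM. Just outside it, 892 open peaks with 4 DBA counts (0.599 CPM) had a median of 3.31 CPM.

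Most members were weak peaks. Their median was 3.60, 2.61, 3.29 and 2.37 CPM in B6 replicates 1, 4, 44 and 51, 0.299 CPM in DBA and 2.11 CPM in PWK BioRep698. It was 6.56 CPM in the other PWK library, whose column name matches no replicate label and which is here called unnumbered. The medians of all open peaks lay between 5.87 and 6.56 CPM in every library. The PWK pair thus differed at the members and not at the open peaks as a whole. By B6 mean, 593 members lay under 3 CPM (7.34% of the open peaks of that level), 597 from 3 to 5 CPM (2.87%), 91 from 5 to 8 CPM (0.523%) and 26 at 8 CPM or more (0.0949%).

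**Figure D1:**
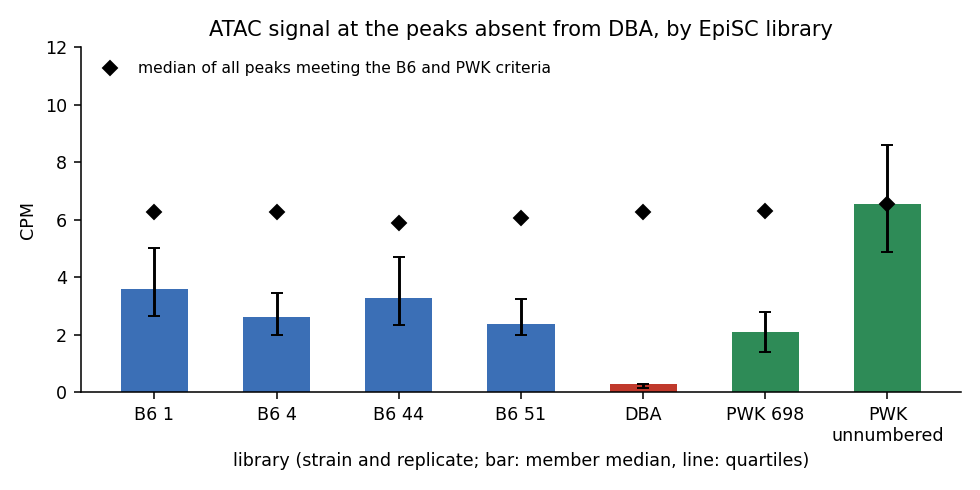
Median CPM of the 1307 members in each of the 7 EpiSC ATAC libraries (bars, with lines from the lower to the upper quartile), beside the median of all 73659 open peaks (diamonds). The rule itself places DBA at 0.299 CPM; the unnumbered PWK library, at 6.56 CPM, stood above the other PWK library at 2.11 CPM.

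Weak and strong members differed in which libraries were high. In the 3 levels below 8 CPM, the unnumbered PWK library exceeded PWK BioRep698 by a median ratio of 3.02, 3.49 and 3.64, while the ratio at the other open peaks of those levels lay between 0.938 and 1.02. B6 replicate 44 stood there at 112%, 124% and 129% of the other B6 libraries, but the rule asks for 1.5 CPM in that library too. With the B6 criterion and mean taken without it, it stood at 97.7%, 101% and 35.9% in the same levels and was the lowest B6 library in 61 of 112 members from 5 to 8 CPM. The PWK ratio was then 2.77, 3.16 and 1.45. With all 4 B6 libraries, at 8 CPM and more, the PWK ratio was 0.900, against 0.936 in the other open peaks. DBA had 0 counts in 14 of these 26 strong members (53.8%) and in 22.8%, 18.9% and 16.5% of the weaker levels.

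Peaks absent from 1 library were more numerous for DBA than for any other of the 7. Each library was put in the place of DBA, with a limit of 0.449 CPM there and the same minimum levels in the other 6. B6 replicates 1, 4, 44 and 51 were then absent from 60, 24, 167 and 157 peaks, which is 0.0878%, 0.0353%, 0.236% and 0.225% of the peaks open in the others. PWK BioRep698 was absent from 317 (0.466%) and the unnumbered PWK library from 343 (0.498%), against 1307 (1.77%) for DBA. Each B6 and PWK library was set beside others of its own strain, so that a loss shared by a strain is not counted for them, while DBA had no partner. Among peaks with a mean of at least 8 CPM in the other 6 libraries, DBA was absent from 28, each PWK library from 19, B6 replicates 4 and 44 from 1 each and B6 replicates 1 and 51 from 0.

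**Figure D2:**
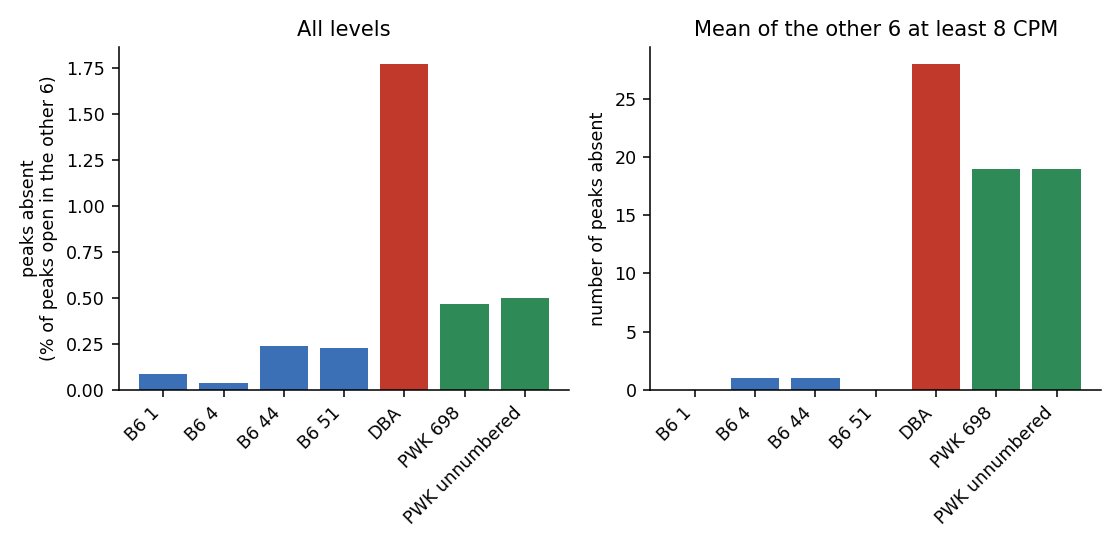
Peaks at or below 0.449 CPM in 1 library and open in the other 6, for each of the 7 EpiSC ATAC libraries in turn, as a percentage of peaks open in the others (left) and as a number among peaks with a mean of at least 8 CPM in the others (right). DBA reached 1.77% and 28 peaks, and the B6 libraries at most 0.236% and 1 peak.

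The 10 members with the highest B6 mean had at most 3 DBA counts by the rule, so their distances from DBA are a description. The strongest lay at chr12:12927161-12927575, 8518 bp from Mycn, a MYC family transcription factor of proliferating stem cells. It had 194, 286 and 364 counts in B6 replicates 1, 4 and 51, 18 in replicate 44, 0 in DBA, and 228 and 370 in the PWK libraries. Replicate 44 lay between DBA and the 3 high B6 libraries. The B6 mean was 29.6 ± 20.3 CPM (SD, n = 4), or 38.0 ± 13.7 without replicate 44, and the former is at least 65.8-fold higher than the 0.449 CPM that 0 counts in DBA allow.

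The second, chr2:177329810-177330167, lay inside the predicted gene Gm14412. It had 197, 344 and 237 counts in B6 replicates 1, 4 and 51, 20 in replicate 44, 0 in DBA and 900 and 895 in the PWK libraries. PWK was thus above every B6 library. The B6 mean was 26.6 ± 14.8 CPM (n = 4), at least 59.3-fold above the DBA floor, and 33.9 ± 2.73 without replicate 44. A further member in Gm14412, chr2:177277815-177278126, had 142, 192, 24 and 136 counts in B6 replicates 1, 4, 44 and 51, 0 in DBA and 196 and 132 in PWK.

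The peak at chr12:35479921-35480211, with no gene within 10 kb, had 145, 262 and 244 counts in B6 replicates 1, 4 and 51, 8 in replicate 44, 0 in DBA and 208 and 186 in PWK. The peak at chr13:17458060-17458297 lay in Sugct, which encodes a coenzyme A transferase of glutarate metabolism, and had 125, 194 and 226 counts in those B6 libraries, 11 in replicate 44, 0 in DBA and 90 and 158 in PWK. In both, replicate 44 lay between DBA and the other B6 libraries. The peak at chr13:119596363-119596583 in Tmem267, a transmembrane protein gene, had 140, 178 and 184 counts, 26 in replicate 44 and 0 in DBA, but 36 and 14 in PWK. PWK was there nearer to replicate 44 than to the other B6 libraries.

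The remaining 4 kept 2 or 3 DBA counts. At chr17:7562949-7563279 the B6 mean was 18.1 ± 10.7 CPM (n = 4) and the ratio to DBA 60.4 (95% Poisson interval of the DBA count 16.7 to 499). At chr5:106791258-106791500 it was 15.2 ± 6.26 CPM with a ratio of 34.0 (11.6 to 165). At chr4:147124774-147125258 in Zfp978, a zinc finger gene, it was 13.7 ± 7.79 CPM with a ratio of 45.8 (12.7 to 378), and at chr4:88760531-88760859 in the predicted gene Gm13283 13.5 ± 7.59 CPM with a ratio of 45.2 (12.5 to 373). PWK was low at 3 of these 4, at 1.05 and 1.91 CPM on chromosome 5, 6.14 and 6.45 CPM in Zfp978 and 1.40 and 2.86 CPM in Gm13283. B6 replicate 44 was the lowest B6 library at each of the 10 peaks, between 1.88 and 6.34 CPM.

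**Figure D3:**
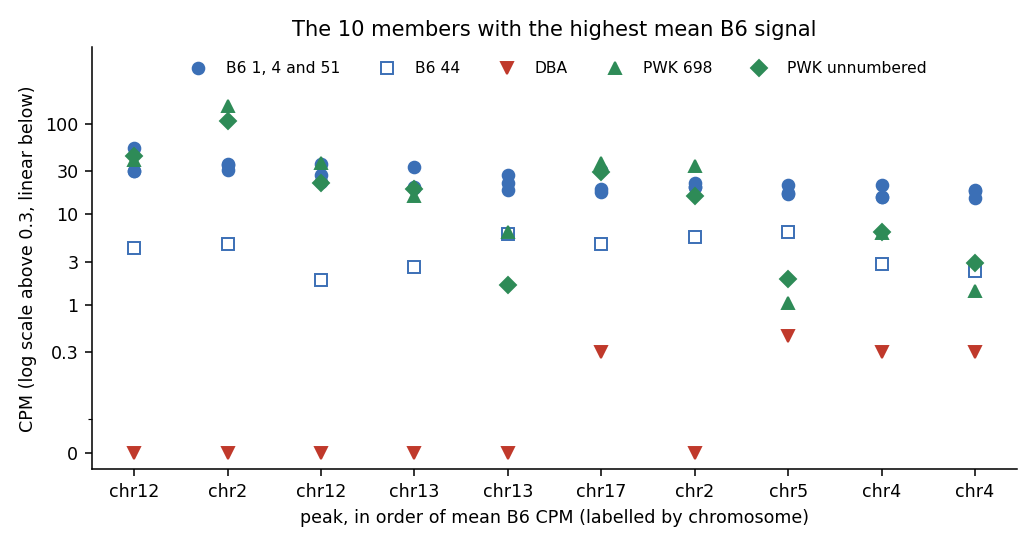
CPM of the 10 members with the highest mean B6 signal in the 7 EpiSC ATAC libraries, on a scale that is logarithmic above 0.3 CPM and linear below. DBA (triangles pointing down) was at 0 counts in 6 peaks, and B6 replicate 44 (open squares) lay below the other B6 libraries at every peak, between 1.88 and 6.34 CPM.

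Along the chromosomes most members stood alone. With a gap of at most 100 kb between neighbours, 1091 members were single, 180 formed 90 pairs and 36 formed 12 clusters of 3, and no cluster was larger. The next open peak along the chromosome was also a member for 67 of 1306 members (5.13%), against the 1.77% of members among open peaks. The share of members among open peaks ranged from 1.18% on chromosome 7 to 2.69% on chromosome 18. Open peaks that flanked a member, members left out, had a median log2 ratio of DBA to B6 (CPM + 0.5) of -0.12 (2479 peaks), those that flanked a strong member -0.33 (45 peaks) and all open peaks but the members 0.01.

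3 of the 12 clusters held strong members. In the cluster on chromosome 2 from 177272351 to 177330167, over Gm14412 and LOC115489547, all 3 open peaks were members with 0 DBA counts, and the 6 other peaks of the table in it summed to 1.65 CPM in DBA, 7.29 ± 3.74 CPM in B6 (n = 4) and 184 and 148 CPM in the PWK libraries. These peaks were far higher in PWK than in B6 or DBA. In the cluster on chromosome 13 from 23492076 to 23506210, over the nuclear tRNA genes n-TMcat5, n-TRacg4, n-TRtcg3, n-TSaga7 and n-TWcca3, which supply methionine, arginine, serine and tryptophan tRNAs, the 3 members had 0 DBA counts and B6 means of 11.9 ± 7.02, 6.01 ± 4.50 and 6.75 ± 2.36 CPM (n = 4). The 5 other peaks there summed to 0.748 CPM in DBA (3.32% of B6), 22.5 ± 14.5 CPM in B6 and 40.4 and 45.2 CPM in PWK. They summed to 3.29 CPM in B6 replicate 44, and 4 of them had 0 DBA counts. The stretch was found by its DBA counts, so these peaks are not separate from the rule. In the cluster on chromosome 12 from 35459914 to 35480211, in which no gene lay, the 3 members had 2 DBA counts in all.

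In the clusters of weak members, the other peaks had more DBA signal, in part by the rule. An open peak that is no member has over 3 DBA counts. Such peaks lay in several weak clusters, as over Cav1 and Cav2 with 3 members of 10 open peaks, and in none of the strong ones. Over Ipo8, Gm31630 and Gm7002 all 3 open peaks were members. Over the chemokine genes Ccl2, Ccl7, Ccl8, Ccl11 and Ccl12 on chromosome 11, the 12 other peaks summed to 14.1 CPM in DBA and 28.6 ± 8.21 CPM in B6 (49.2%). Over Cav1 and Cav2, which encode caveolins of the cell membrane, DBA was at 94.8% of B6 in the 14 other peaks, over Ddr2, a collagen receptor, at 53.1% in 10 peaks, and over the importin gene Ipo8 at 59.0% in 8 peaks. Over Eya4 it was at 141% in 2 peaks. In the remaining 4, over Fyb, 1700063D05Rik, Gm31630 and Gm7002, it was at 92.0%, 79.8%, 50.7% and 28.3% of B6.

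Without B6 replicate 44 the clusters were larger, with 28 clusters of 3 or more that held 103 members and a largest cluster of 11. That cluster, on chromosome 13 from 23492076 to 23516517, took in the tRNA cluster and n-TWcca4, and 11 of its 12 open peaks were members. DBA had 0 counts over all 11, while B6 replicates 1, 4 and 51 summed to 86.3 ± 25.6 CPM (n = 3), replicate 44 to 11.7 CPM (13.6% of the other B6 libraries) and the PWK libraries to 99.7 and 95.01 CPM. The next, of 7 members, lay on chromosome 17 from 36083362 to 36114523 over the major histocompatibility genes H2-Bl and H2-T-ps. Its members summed to 3 DBA counts, 36.1 ± 4.12 CPM in B6 replicates 1, 4 and 51, 7.28 CPM in replicate 44 (20.2%) and 43.9 and 30.3 CPM in PWK. A cluster of 5 on chromosome 14 from 41264792 to 41586601, over Gm2832 and other predicted genes, had 0 DBA counts, 27.1 ± 6.25 CPM in the 3 B6 libraries, 4.46 CPM in replicate 44 (16.5%) and 95.8 and 70.9 CPM in PWK. In the clusters over Cav1 and Cav2 (5 members) and Ubash3b (4 members), replicate 44 stood at 89.3% and 91.5% of the other B6 libraries.

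Members lay on start sites less often than other open peaks. Of the 1307, 21 (1.61%) touched a start-site window, against 14.3% of the open peaks. A further 721 (55.2%) lay in a gene, 227 (17.4%) within 10 kb of one and 338 (25.9%) farther away, against 53.6%, 17.6% and 14.5% of the open peaks. The share on start sites rises with the level, and it was below that of the open peaks in each of the 4 levels: 1.35% against 3.29% under 3 CPM, 1.17% against 5.33% from 3 to 5, 3.30% against 9.00% from 5 to 8, and 3 of 26 (11.5%) against 27.8% at 8 CPM and more. The share inside genes, higher than that of the open peaks when all levels are pooled, was lower within each level, at 56.5% against 58.8%, 54.3% against 58.3%, 54.9% against 57.02% and 46.2% against 46.3%. The median width was 177 bp in members and 191 bp in open peaks, but within each level members were wider, at 154 against 121 bp, 189 against 152 bp, 222 against 185 bp and 308.5 against 268 bp.

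22 start-site windows lay under members. Their median GC content was 47.0%, against 62% in windows under the other open peaks and 53.0% in all windows of chromosomes 1 to 19. The motif TGANTCA, which the AP-1 factors of the FOS and JUN families bind and which reads the same on both strands, was in 9 of 22 (40.9%), against 4.87% and 7.84%. The motif GGAATG of the TEAD factors was in 31.8%, against 11.5% and 14.6%, and GGGCGG of the SP and KLF factors in 18.2%, against 67.0% and 36.0%, both searched on either strand. CCAAT of NF-Y was in 40.9%, against 39.9% and 37.3%. ATGCAAAT of the POU factors was in 4.55%, against 1.57% and 1.75%, and ACAAAG of the SOX factors in 4.55%, against 12.6% and 18.6%. CAGCAGG of the ZIC factors was in 9.09%, against 11.04% and 10.6%, and the CTCF motif in 0 of 22, against 0.138% and 0.0637%. The 22 windows are few, and a match is a description of letters, not of binding. Peak levels were not matched in these shares. Of 10545 open peaks on a start-site window, 7606 had a B6 mean of at least 8 CPM, against 3 of the 21 members. Gene model names were borne by 14 of the 22 windows, and any overlap counted, down to 5 bases at Rrn3.

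Of 10 AP-1 matches in these windows, 9 lay inside the member peak. 8 of these 9 are shown, by the position of the motif, with 10 bases on each side, on the strand of the gene and with the motif in capitals, because the motif was the sequence feature most frequent in member windows relative to all windows. Tnfaip6 encodes a hyaluronan-binding protein that is induced by inflammatory signals, and its member had 2 DBA counts and a B6 mean of 2.39 CPM. The members at the other 6 genes had B6 means from 2.25 to 3.98 CPM.
Tnfaip6 (chr2:52037971-52037977, plus strand): ccaatgcaaaTGAGTCAgagggcttgc
Glrp1 (chr1:88510118-88510124, minus strand): ttaaccctgcTGACTCAcctttgctat
D330050G23Rik (chr2:116899973-116899979, plus strand): gtctctgcagTGACTCAgaagacatgt
Gm51485 (chr7:65802472-65802478, minus strand): ccacggccacTGAGTCAtcaattagtc
Gm20758 (chr10:111874514-111874520, minus strand): agtaactatgTGAGTCAaggggaagga
Gm30214 (chr14:53039627-53039633, minus strand): gtcaatggaaTGACTCAaatgacaaat
Gm29906 (chr1:70918572-70918578, minus strand): ttatctggtaTGAGTCAgctaaaacac
Gm29906 (chr1:70918528-70918534, minus strand): cagaggaccaTGAGTCAgctaataaca

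RNA was examined at the genes near members. A gene counted as a neighbour when a member lay in it or within 10 kb of it, which gave 1260 genes for 969 members. Of the gene families that often vary in copy number, Zfp genes made up 9 of the 1260 (0.714%, against 1.20% of the neighbours of all open peaks), interferon-induced Ifi genes 4 (0.317% against 0.0778%), H2- genes 4 (0.317% against 0.120%) and Serpin genes 3 (0.238% against 0.107%). Olfr and Vmn genes made up 2 each (0.159%, against 0.635% and 0.214%), and Trim, Gbp and Skint genes 1 each (0.0794%, against 0.185%, 0.0292% and 0.00324%). Klr, Nlrp, Defa, Defb, Cyp, Scgb and Mup genes made up 0, against shares between 0.00648% and 0.188%. Gene models with Gm or Rik names made up 32.8%, against 39.3%.

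Of 837 neighbours in the RNA table, 589 passed a mean of 1 CPM over DBA and B6 EpiSCs. A gene was called when DBA lay outside the range of the 5 B6 libraries and differed by over 1 log2 unit of (CPM + 0.5) from their mean. With 1 DBA library this is a description without a test. Called lower were 22 (3.74%, 95% Wilson interval 2.48% to 5.59%), against 2.80% of all 12773 genes, and called higher 9 (1.53%, 0.806% to 2.88%), against 2.65%. The Wilson intervals here and below treat genes as independent draws, though all DBA values come from 1 library, so they are no test. Both intervals include the share in all genes. The median log2 ratio was -0.03, against -0.02 in all genes, and DBA lay below the B6 range in 23.1% and above it in 13.6%, against 23.6% and 17.6% of all genes. For the genes near the members with at most 1 DBA count, 13 of 180 were called lower (7.22%).

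The neighbours of the 26 strong members held 13 genes past the filter, of which 3 were called lower (23.1%, Wilson interval 8.18% to 50.3%, against 2.80% of all genes) and 0 higher. Their median log2 ratio was 0.20, and DBA lay above the B6 range in 5 of the 13 (38.5%, against 17.6%) and below it in 3 (23.1%, against 23.6%). 5830417I10Rik, 1909 bp from a member, was at 21.4 CPM in DBA, 129 ± 8.80 CPM in B6 (SD, n = 5) and 97.8 to 104 CPM in PWK, a log2 difference from B6 of -2.56. Gm14412 was at 0.515 CPM in DBA, 4.78 ± 2.06 CPM in B6 and 27.9 to 33.9 CPM in PWK, a difference of -2.25. Its RNA was highest in PWK and lowest in DBA, as was its stronger peak. Tmem267 was at 1.33 CPM in DBA, 5.74 ± 1.36 CPM in B6 and 2.12 to 2.25 CPM in PWK, a difference of -1.75, and its peak too was low in PWK.

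RNA of the library labelled B6 replicate 44 did not share the low peaks of the ATAC library of that number. It had 4.24 CPM of Gm14412, 131 CPM of 5830417I10Rik and 5.91 CPM of Tmem267, within the range of the other B6 libraries. Mycn RNA was at 92.9 CPM in DBA and 118 ± 37.7 CPM in B6, a difference of -0.29 inside the B6 range, although its member had 0 DBA counts. Mertk, a receptor for dying cells, Cflar, an inhibitor of caspase 8, Nhsl1 and Zfp991 were at differences of 0.24, 0.40, 0.58 and 0.35, with Cflar inside the B6 range. Without ATAC replicate 44, the strong set had 24 genes past the filter, of which 4 were called lower and 1 higher.

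Among neighbours with a gene name for which DBA lay outside the B6 range, the lowest was Galnt2, an enzyme that starts O-glycosylation, at 0.994 CPM in DBA and 14.5 ± 4.96 CPM in B6, a log2 difference of -3.25. Cap2 and Fmn2, which act on actin, followed at -1.95 and -1.83. After Tmem267 came the deubiquitinase Otud7a at -1.71, Pcp4l1 at -1.50, the autophagy enzyme Atg10 at -1.29, Prr5l, a partner of mTORC2, at -1.26, the sarcomere gene Myom1 at -1.25 and the DNA repair gene Babam2 at -1.23. Galnt2 was lower in DBA than in all 11 other EpiSC RNA libraries, whose values ran from 6.90 to 35.5 CPM. Genes inside the B6 range stand outside this order, such as Itpr1, a calcium channel gene chosen here after its values were seen, at 0 CPM in DBA and 5.44 ± 7.66 CPM in B6.

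The highest was Hmga1b, a near copy of the chromatin protein gene Hmga1, at 1599 CPM in DBA and a difference of 4.63. Its 5 B6 libraries ran from 7.97 to 622 CPM, and reads of such copies can be split in counting, so that this value is uncertain. Rex2, a zinc finger gene, was at 4.49 CPM in DBA and 0.497 ± 0.351 CPM in B6 (2.39). The RNA-binding protein gene Rbm47 was at 1.78, Gsap, which acts on gamma-secretase, at 1.49, Samd5 at 1.23 and the teneurin gene Tenm4 at 1.22. Adgrl3, a latrophilin, was at 1.01, Adam23 at 0.95, Rabgap1l at 0.93 and the phagocytic receptor Megf10 at 0.85.

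In the clusters, Gm14412 was the only gene past the filter that was called. Ccl2 and Ccl7 were at 11.7 and 5.30 CPM in DBA and at 15.3 ± 17.7 and 8.30 ± 11.6 CPM in B6, Cav1 and Cav2 at 29.9 and 5.63 CPM against 23.5 ± 20.3 and 4.39 ± 1.68, Ddr2 at 42.0 against 27.8 ± 29.4 and Ipo8 at 145 against 146 ± 13.0, each inside the B6 range. Eya4 was at 1.58 CPM against 1.11 ± 0.154, above the range with a difference of 0.37. The spread between B6 libraries in Ccl2, Ccl7, Cav1 and Ddr2 was about as large as their mean.

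The neighbours also varied between libraries of the other groups. Set against the other 4 B6 libraries, B6 replicate 1 had 9.15% of neighbours lower (5.38% of all genes) and replicate 51 had 9.15% higher (3.93%). The 3 PWK libraries had 8.61% to 11.2% higher (6.70% to 7.33% of all genes), and the 3 B6.129 F1 libraries 5.48% to 7.88% lower (2.83% to 3.30%). The summed RNA of 8 genes of feeder fibroblasts, such as Col1a1 and Postn, differed between these libraries too. It was 51.3 CPM in B6 replicate 1, 116 to 178 CPM in B6.129 F1, 349, 953 and 1030 CPM in B6 replicates 4, 44 and 2, 2425 CPM in B6 replicate 51 and 1983 to 2830 CPM in PWK, with none of the 8 genes at 0 in any library. In DBA it was 1299 CPM, and all 8 lay inside the B6 range. The shares did not follow this sum in every library. B6 replicate 4 had 2.88% of neighbours higher and 1.19% lower (2.23% and 1.20% of all genes). B6 replicate 2 had 0.847% higher and 2.88% lower (1.03% and 1.89%), and DBA 1.53% and 3.74% (2.65% and 2.80%). The part of feeder cells in these shares was not tested, and fewer cells of a type and less RNA per cell cannot be told apart in bulk samples.

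**Figure D4:**
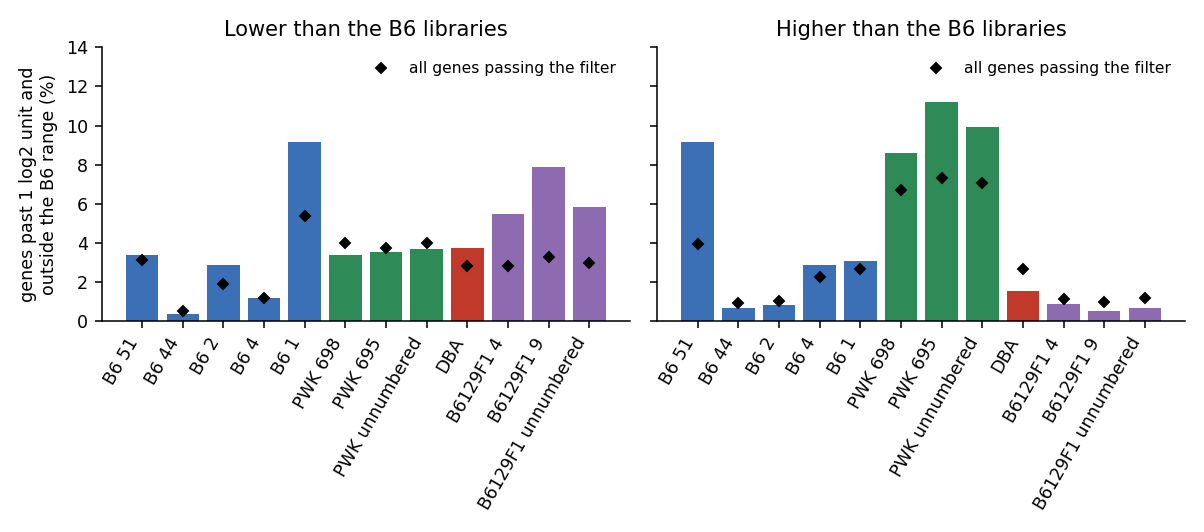
Share of genes near members whose RNA lay over 1 log2 unit below (left) or above (right) the B6 EpiSC libraries and outside their range, for each EpiSC RNA library, with the same share over all genes as diamonds. For B6 libraries the comparison is with the other 4. DBA had 3.74% lower and 1.53% higher, and B6 replicates 1 and 51 reached 9.15% on opposite sides.

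In the ATAC libraries, peaks within 10 kb of the same 8 fibroblast genes summed to 164 CPM in DBA, 176 and 245 CPM in PWK BioRep698 and the unnumbered PWK library, and 182 to 214 CPM in B6 (42 peaks). DBA was thus the lowest of the 7 libraries, not far below PWK BioRep698, and the unnumbered PWK library, in which weak members were high, the highest. RNA of the 8 genes lay inside the B6 range in DBA. Their log2 ratios of DBA to the mean of B6 logarithms were all positive, from 0.32 (Twist2) to 1.65 (Col3a1). That mean is sensitive to low libraries, such as B6 replicate 1 with a sum of 51.3 CPM. By mean CPM, Postn (97.2 against 102 in B6), Thy1 (42.5 against 44.4) and Twist2 (2.06 against 2.13) were slightly lower in DBA and the others higher. The part of feeder cells in the result was not tested.

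Differentiation of B6 EpiSCs to DE gave a comparison in which DBA had no part. Of the 1307 members, 931 overlapped a peak of the table of B6 EpiSCs and DE by at least 50% of the shorter peak, and 376 had no such peak. Of the 72352 other open peaks, 68856 overlapped one. Under 3 CPM in B6 it was 303 of 593 members and 5525 of 7482 other open peaks. The comparison thus covers a smaller part of the members than of the other open peaks, and least of the weakest. Over the 931, the median signal was 2.30 to 3.68 CPM in the 4 B6 EpiSC libraries and 0.286 to 0.412 CPM in the 4 B6 DE libraries (CPM with TMM-scaled library sizes), and the groups did not overlap in these medians. The other open peaks had medians of 6.41 to 6.82 CPM in EpiSCs and 4.61 to 4.87 CPM in DE. The median member stood in DE at 8.86% of its EpiSC level, and the median of the other open peaks at 71.5%. Under 10% of the EpiSC level were 510 of 931 members (54.8%) and 7.06% of the other open peaks.

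In edgeR's quasi-likelihood test with no filter on low counts, at a Benjamini-Hochberg adjusted p under 0.05, 800 of the 931 members were lower in DE (85.9%) and 21 were higher (2.26%). Of the other open peaks 38.3% were lower and 10.7% higher, while 26.2% of all peaks in the comparison were lower and 31.0% higher. With the filter of filterByExpr, 636 members were tested, 539 of them lower and 22 higher, against 25.0% lower and 32.6% higher of all peaks, and 37.2% and 11.3% of the open peaks. That filter counts libraries of either group, so the 295 members that did not pass it had low counts in libraries of both groups. The counts without it are the ones that cover every matched member. The B6 EpiSC libraries of this test also served the rule, which all open peaks share.

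Most members that were lower in DE were weak. From 3 to 5 CPM, 470 of 512 matched members were lower in DE (91.8%), against 40.1% of the other open peaks of that level, and from 5 to 8 CPM 80 of 90 (88.9%), against 41.4%. Under 3 CPM it was 239 of 303 (78.9%), against 32.1%. Of the 26 strong members 11 were lower (42.3%) and 0 higher, against 36.3% and 11.2% of the other open peaks of that level. With the filter of filterByExpr, 12 of the 26 were lower (46.2%) and 1 higher (3.85%), against 35.2% and 11.7% of all open peaks of that level. The strong members stood in DE at a median of 66.2% of their EpiSC level, the other strong open peaks at 83.8%.

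The fibroblast markers moved in the same direction. The 34 peaks of the table within 10 kb of the 8 genes summed to 175 to 201 CPM in the B6 EpiSC libraries and to 97.8 to 121 CPM in B6 DE, with 20 peaks lower in DE and 4 higher in the test without a filter. EpiSCs had grown over feeder cells and were detached with collagenase, while DE cells were sorted for CXCR4. The change of cell state, the sort and the feeder cells cannot be told apart here.

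**Figure D5:**
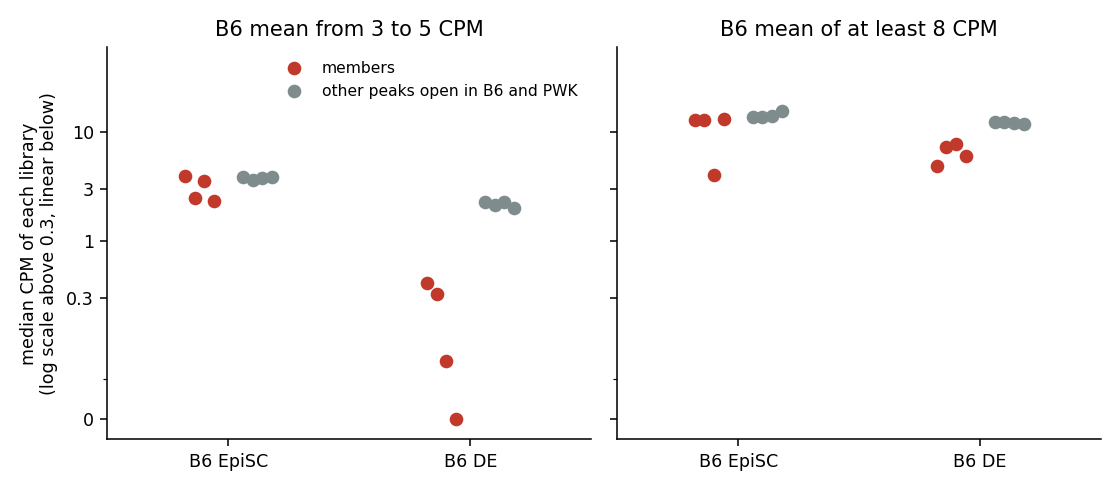
Median CPM of members (red) and of the other open peaks (grey) in each of the 4 B6 EpiSC and 4 B6 DE ATAC libraries, for peaks with a B6 mean from 3 to 5 CPM (left) and of at least 8 CPM (right), on a scale that is logarithmic above 0.3 CPM and linear below. Members of 3 to 5 CPM had medians of 2.32 to 4.00 CPM in EpiSCs and of 0 to 0.412 CPM in DE.

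The 10 strongest members differed in how much signal they had in DE. They were picked by the B6 EpiSC libraries, so their values are a description, with no test. The peak near Mycn was at 30.2 ± 21.2 CPM in EpiSCs and 0.514 ± 0.358 CPM in DE (SD, n = 4 each), a log2 difference of -5.73, and -6.13 without EpiSC replicate 44. The peak at chr12:35479921-35480211 was at 22.2 ± 14.8 and 5.22 ± 3.40 CPM, a difference of -2.02. The peak at chr17:7562949-7563279 was higher in DE, at 19.5 ± 11.6 CPM in EpiSCs and 39.0 ± 3.84 CPM in DE, and the 4 DE libraries lay above all 4 EpiSC libraries. In Gm14412, chr2:177277815-177278126 was at 17.3 ± 7.58 and 8.58 ± 1.65 CPM, and chr2:177329810-177330167 at 27.1 ± 14.8 and 21.7 ± 0.919 CPM, a difference of -0.35, or -0.74 without EpiSC replicate 44. The peak in Sugct was at a log2 difference of -1.03, or -1.43 without that library.

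The library labelled B6 DE replicate 44 was not low at the strong members as a group. At the 54 strong members found without EpiSC replicate 44, the median was 6.87 CPM in DE replicate 44 and 5.25, 6.42 and 6.34 CPM in DE replicates 2, 4 and 51. It was the lowest DE library in 14 of the 54 and under 25% of the others in 7. The EpiSC library of that number had a median of 1.79 CPM at these peaks, against 9.57 to 12.5 CPM in the other B6 EpiSC libraries. At the member in Gm13283, in contrast, DE replicate 44 had 0.572 CPM and the other DE libraries 9.47 to 15.6 CPM.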

How the data were processed

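ATAC-seq counts per peak and RNA counts per gene were used as the authors deposited them, as raw counts in tables of all libraries. Per the submitters' processing notes, ATAC-seq reads were handled with fastp, Bowtie2, MACS2 and featureCounts on the mm10 build, and Salmon is named among the tools for RNA. Their versions, parameters and duplicate handling, and whether peak starts count from 0 or 1, are not given in the sources used here. Within a peak table every library was counted over the same peaks. 17 columns of the EpiSC peak table that match no sample are not used here. 1 PWK column in each assay and 1 B6.129 F1 column have names that match no replicate label and were placed by strain. PWK DE is not analysed here.

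Reads of all strains share 1 reference build, so that DNA which DBA lacks or carries in another form can lower its counts. CPM used column sums over all peaks or genes, and a logarithm used a pseudocount of 0.5. Genes and start-site windows came from RefSeq (GRCm38.p6), and of 29555 gene identifiers 29270 matched a symbol and 24570 an autosomal position. Motifs were searched in start-site windows alone, since no genome sequence was used. Per library, 25084505 to 29947841 B6, 27168768 DBA, 24529054 to 28872894 PWK and 25054554 to 29600225 B6.129 F1 RNA counts set the precision, with 4256551 to 9571127 ATAC counts.

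DBA has 1 library per assay and was described without a test. B6 DE was tested against B6 EpiSCs with edgeR 4.0.16 in R 4.3.3 (TMM, filterByExpr, robust quasi-likelihood fit, Benjamini-Hochberg adjustment over all peaks of the table), after a trial on simulated data. Replicate numbers 4, 44 and 51 occur in both groups. The correlations of same-numbered libraries' deviations from their group means were 0.0397, -0.0107 and 0.0274, so the numbers were not treated as pairs. Named are all clusters of 3 or more members (at most 12), the 10 members with the highest B6 mean, the 10 lowest and 10 highest log2 ratios among neighbouring genes outside the B6 range with a gene name, and genes of the named clusters past the filter. Genes near strong members, the split by B6 level and clusters found without replicate 44 were added after seeing the values. The members, lists and tests were chosen with earlier results of these data known. Alternatives were other limits, scalings, filters, gaps and distances, each library left out, and DESeq2 1.42.0. The definitive endoderm and pluripotency lists served as checks of the labels. In DBA RNA, 1 of 7 endoderm genes, Foxa2, lay outside the B6 range. It was higher, at 88.6 CPM against 37.6 ± 12.6 CPM in B6, a log2 difference of 1.31.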

Additional observations from a re-analysis of the deposited data

Results flagged for a closer look

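Of 60 groups of 4 or 5 libraries of B6 EpiSCs or B6 DE looked at, 7 held a library far from the others, and about 1 in 20 would by chance. 2 of these were strong members inside Gm14412, where the library labelled B6 EpiSC replicate 44 was low, at 4.70 CPM at chr2:177329810-177330167 and 5.64 CPM at chr2:177277815-177278126. In B6 EpiSC RNA, replicate 51 was high for the chemokine genes of the chromosome 11 cluster, with 45.9 CPM of Ccl2 and 28.8 CPM of Ccl7. In B6 DE, replicate 2 was low in the peak in Sugct at 4.53 CPM, replicate 44 high at chr17:7562949-7563279 at 44.7 CPM, and replicate 4 low at chr5:106791258-106791500 at 8.23 CPM.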

How the results depend on the processing

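The number of members followed the limits of the rule: 405 with at most 1 DBA count, 3579 with at most 6, and 322 with a B6 minimum of 2.5 CPM. It was 1503 with a PWK minimum of 0.5 CPM, 1408 with TMM-scaled and 1680 with autosomal library sizes, and it ranged from 1325 to 1996 with 1 B6 or PWK library left out, the highest without B6 replicate 51. Members in clusters of 3 or more numbered 15 with a gap of 50 kb, 126 with 250 kb, 6 with at most 1 DBA count, 0 with the higher B6 minimum (16 then stood in pairs) and 103 without B6 replicate 44. The share of neighbouring genes lower in DBA RNA was 1.36% with a pseudocount of 2 (all genes 1.56%), 2.10% with a filter of 5 CPM (2.29%) and 7.22% near members with at most 1 DBA count. In 12 further alternatives it stayed within the interval of the main value, with 3.40% to 4.45% when a B6 RNA library was left out. Of the log2 ratios of 39 genes (the named genes, those near strong members and those of the clusters) under other scalings, pseudocounts and left-out libraries, 336 moved by less than the spread between B6 libraries and 15, all under another pseudocount, by more. Another sign was seen in 7, all of Ipo8, Ccl2 or Ccl7, for which DBA lay inside the B6 range. In DE, DESeq2 without a filter found 810 members lower and 22 higher of 931, against 26.4% and 30.6% of all peaks. The replicate block over numbers 4, 44 and 51 gave 506 lower and 19 higher of 721 (17.7% and 27.0% of all peaks). The same libraries without it gave 574 and 19 (21.5% and 28.9% of all peaks). With 1 library left out, 686 to 824 members passed the filter, of which 567 to 711 were lower and 19 to 21 higher. Of all peaks, 24.0% to 29.9% were then lower and 27.4% to 33.2% higher. Depth limits the weak members most, since the limit of 3 DBA counts and the B6 minimum are a few reads apart.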
